A study of Mus musculus with 12 samples.

Results

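The comparison described here is that of nephron progenitor cells (NPC) kept in DMEM with YN1 against NPC kept in DMEM without it. It takes 6 of the 12 bulk RNA libraries of the series, 3 of YN1 in DMEM and 3 of the DMEM control, chosen by their labels alone. The cells were labelled WT and came from E13.5 kidneys of litters of CD1 females and Six2GFP+ or GFP- males. They were isolated by magnetic sorting (MACS) and expanded over several passages in nephron progenitor expansion medium (NPEM). YN1 was given at 20 µM for 24 h in DMEM with KO serum replacement and Fgf2. The DMEM control was labelled only as a medium control, and neither its supplements nor a vehicle is described, so the groups may differ in more than YN1. The other groups of the series, 3 libraries each, are the NPEM control and CHIR in DMEM (3.5 µM CHIR99021), and they serve below only as a scale. The study speaks of 3 independent NPC preparations from pooled embryos, and the labels give each group the replicate numbers 1, 2 and 3.

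YN1 is an inhibitor of PFKFB3, one of the bifunctional enzymes that make fructose 2,6-bisphosphate, the strongest activator of phosphofructokinase 1 (PFK1) and with it of glycolysis. NPC are the Six2 and Cited1 expressing cap mesenchyme of the embryonic kidney. They either renew themselves or form nephrons, and glycolysis is known to be high in the renewing cells. The question of the comparison is what YN1 does to the transcriptome of these cells beyond the change of medium. An enzyme inhibitor acts on a protein, so RNA levels of the target and of its pathway are a readout of the response and not of the inhibition itself.

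Values are TPM, which give shares of a library and no counts, and the sequencing depth behind them is not known. Of 54184 genes in the tables, 14500 had at least 1 TPM in at least 3 of the 6 libraries and were tested. LogFC is the difference of the mean log2(TPM + 1), YN1 minus DMEM, and it understates differences of genes near 1 TPM. Its standard error (SE), 95% interval and p come from limma, two-sided, with n = 3 per group. Unless a fit with the replicate number as a block is named, the fit had no block. The 6 libraries summed to 969477 to 973162 TPM, and 14258 to 14569 genes reached 1 TPM in a library. The labelled cell type was checked against its markers. Of 16 progenitor genes, 15 passed the filter, among them Six2 at 36.0 to 175 TPM and Eya1 at 121 to 201 TPM, while Pax2 was at 0.50 to 3.97 TPM. Some markers of endothelium (Pecam1, Cdh5, Tek), leukocytes (Ptprc, Csf1r) and podocytes (Nphs1) were under 1 TPM in each of the 6 libraries. However, Kdr reached 4.42 TPM in DMEM replicate 1 and Emcn was at 76.1 TPM or more. By list, 4 of 8 endothelial and 8 of 12 macrophage and blood genes were under 1 TPM in all 6. So were 3 of 10 muscle and neural and 2 of 11 ureteric bud and collecting duct genes. These 2 lists summed to 71.8 to 254 and 33.4 to 219 TPM in the 6 libraries. Of the 10 genes of the podocyte and tubule list, 8 were under 1 TPM in all 6 libraries, while Synpo, for one, was at 16.1 to 75.6 TPM. Stromal genes differed in level, with Col1a1 at 499 to 1702 TPM in the 6 libraries and Pdgfra at 4.18 to 59.3 TPM.

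The transcriptomes of both groups lay close to each other. By adjusted p, limma called 0 of the 14500 genes (0%) without a block and 0 (0%) with the replicate number as a block, and the smallest adjusted p was 0.0976 and 0.112. At an unadjusted p under 0.05 the fit without a block counted 75 genes (0.517%), 46 higher in YN1 and 29 lower. With the block 1074 genes (7.41%) were counted, 590 higher and 484 lower. With predicted and small RNA names left out, the fit with the block counted 1204 of 11790 (10.2%). Uniform p would give a share of 0.05, so the fit without a block was under that share and the fit with it was over. The study asked for a LogFC past 0.6 in size and p under 0.05 without adjustment, in Sleuth results. Here the thresholds were put on limma results of log2(TPM + 1), so counts are not comparable with the study's. By them there were 66 genes (0.455%), 41 higher and 25 lower, and 185 (1.28%) with the block, 105 higher and 80 lower. The same thresholds gave 1509 genes (10.5%) for YN1 against NPEM without the block and 2040 (14.2%) with it. With 3 libraries per group, a two-sided exact permutation test of a single gene cannot go below p = 0.10, and with 3 pairs not below 0.25.

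A missing call does not show that levels were equal, so the intervals were counted as well. The LogFC was within 0.6 either way in 13976 genes (96.4%). The whole 95% interval lay within 0.6 for 5722 genes (39.5%) without the block and for 11289 (77.9%) with it. Within 1, a change of 2-fold on the scale used, it lay for 10726 genes (74.0%) and 13383 genes (92.3%). For the other genes a difference past these bounds was not excluded by the interval. The median absolute LogFC was 0.0926, and 95% of genes were under 0.497. The same median was 0.301 for CHIR against DMEM and 0.247 for DMEM against NPEM, with 95% of genes under 1.19 and 1.18. By adjusted p, CHIR against DMEM gave 36 genes (0.252%) and 1832 with the block (12.8%), and DMEM against NPEM gave 64 (0.446%) and 933 with the block (6.50%). These comparisons share libraries, so their values are set side by side and not tested against each other.

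**Figure D1:**
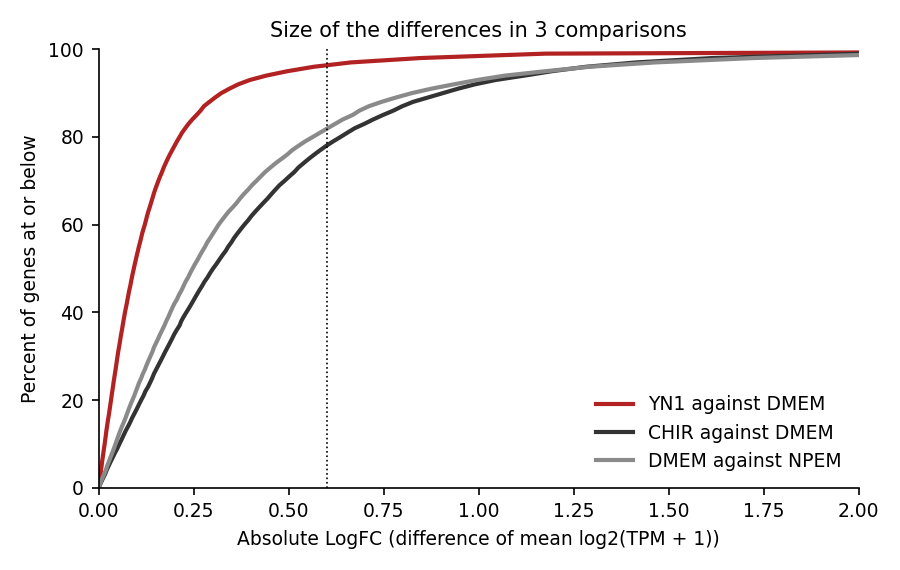
Percent of genes (vertical axis) whose absolute LogFC is at or below the value on the horizontal axis, for YN1 against DMEM (red), CHIR against DMEM (black) and DMEM against NPEM (grey), each over its own tested genes. The dotted line is the study's threshold of 0.6, under which 96.4% of genes lay for YN1 against DMEM, 78.0% for CHIR against DMEM and 81.9% for DMEM against NPEM.

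Between YN1 and DMEM, libraries with the same replicate number were nearer to each other than libraries within either group. The median absolute difference of log2(TPM + 1) between the YN1 and the DMEM library was 0.168 for replicate 1, 0.107 for replicate 2 and 0.115 for replicate 3. All other pairs among the 12 libraries, same-number pairs with NPEM and CHIR included, were at 0.233 or more. Within the DMEM control the libraries were 0.275 to 0.347 apart and within YN1 0.275 to 0.416. For each of the 6 libraries the nearest of the other 11 was the one of the other group with its own number. Of the sum of squares over the 14500 genes in the 6 libraries, 9.22% lay between groups, 74.7% between replicate numbers and 16.1% in neither. Spread between libraries alone also gives a share between groups, so 9.22% is not a measure of YN1 alone. An epithelial signal shows the split by replicate number. The keratin Krt8 stood at 0.19, 1.75 and 57.3 TPM in DMEM replicates 1, 2 and 3 and at 0.09, 1.21 and 58.3 TPM in YN1, so that replicate 3 was high in both groups. Since the number carries most of the spread, the median SE of the LogFC was 0.241 without the block and 0.0966 with it.

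**Figure D2:**
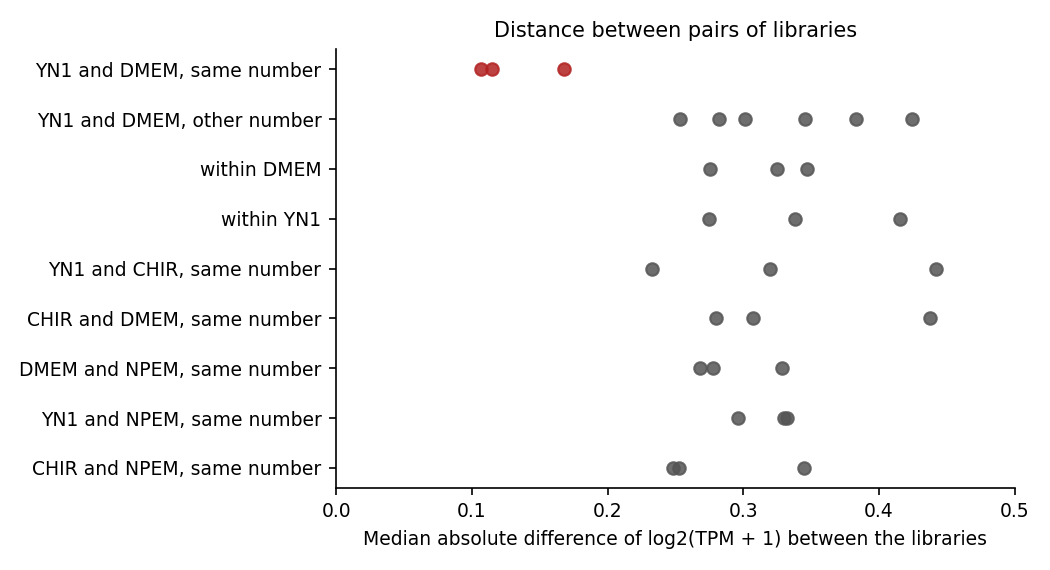
Each point is a pair of libraries, placed by the median absolute difference of log2(TPM + 1) between them (horizontal axis, log2 units). The 3 pairs of YN1 and DMEM libraries with the same replicate number (red, 0.107 to 0.168) lie left of all other pairs, including those within a group.

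**Figure D3:**
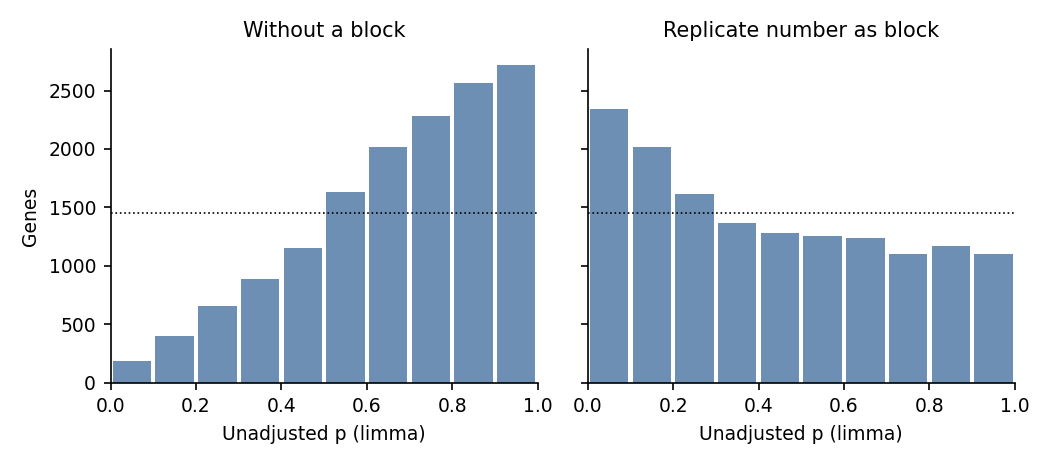
Number of the 14500 genes (vertical axis) by unadjusted p of limma (horizontal axis, steps of 0.1), without a block on the left and with the replicate number as a block on the right, with a dotted line at the mean number per bar. Without the block the bars rise from 190 genes in the lowest step to 2717 in the highest, and with it they go from 2342 to 1105.

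Without the block, the genes past these thresholds were mostly predicted genes and small RNAs. Of the 75 genes at an unadjusted p under 0.05 without the block, 68 had such names, as did 65 of the 66 at the study's thresholds and 196 of the 206 genes with a LogFC beyond 1, against 2710 of the 14500 tested. With the block, 254 of the 1074 genes at an unadjusted p under 0.05 had such names and 820 had other names. At the study's thresholds with the block, 147 of 185 had such names. In poly-A libraries short RNAs are measured poorly. The gene with the smallest adjusted p, Gm25788, a predicted gene named here after its values were seen, was listed at 0 in all 3 DMEM libraries and at 7.60, 5.84 and 7.38 TPM in YN1. In 193 genes (1.33%) all YN1 libraries were above all DMEM libraries, and in 176 (1.21%) all were below. Beyond a difference of 1 in the same direction in all 3 pairs were 16 genes higher (0.110%) and 9 lower (0.0621%), and each of them had the name of a predicted gene, a small RNA or a mitochondrial transfer RNA.

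Among genes with ordinary names and groups that did not overlap, the smallest p values belonged to modest differences. Mpv17l, a peroxisomal and mitochondrial membrane protein (mm9, chromosome 16, 13903254 to 13949712), was at 4.48, 3.92 and 3.65 TPM in DMEM and at 8.58, 5.96 and 6.02 TPM in YN1 (LogFC = 0.63, SE 0.23, adjusted p = 1.0). The group means differed by less than 1.0 on the log2 scale in every gene named by this rule, 10 in each direction. Irf9, the DNA-binding part of the interferon-activated transcription complex, was at 24.1 to 24.9 TPM in DMEM and at 48.9, 29.9 and 30.7 TPM in YN1 (LogFC = 0.51, SE 0.21). Ext1, which extends heparan sulfate chains, was at 102 to 111 TPM against 121 to 157 TPM (LogFC = 0.31). The others above were Ermard, Fbxw17, Tcp11l1, Phf21b, Itga10, Zfp457 and Hoxa9, with LogFC of 0.27 to 0.58.

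Below the control was Pcif1, the methyltransferase of the mRNA cap adenosine (mm9, chromosome 2, 164704804 to 164719954). It was at 41.8, 47.4 and 44.8 TPM in DMEM and at 30.0, 36.4 and 36.0 TPM in YN1 (LogFC = -0.38, SE 0.14, adjusted p = 1.0), with no overlap. Ptn, the growth factor pleiotrophin, was at 381 to 491 TPM in DMEM and at 252, 363 and 355 TPM in YN1 (LogFC = -0.40), where replicate 1 was the lowest. Ggt5, a gamma-glutamyltransferase, was at 20.5 to 39.1 TPM against 16.2 to 18.1 TPM (LogFC = -0.61). The other genes were Blvrb, Alkbh2, Rem1, Syce2, Eci3, Lama4 and Pja1, with LogFC of -0.51 to -0.23.

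With the replicate number as a block, genes were named only if they had the same sign in all 3 pairs. Their repetition over the pairs was thus a condition of the choice and not a result. None passed the adjusted p, and the differences were small. Meg3, an imprinted long noncoding RNA, was at 123, 48.8 and 97.8 TPM in DMEM and at 154, 60.0 and 125 TPM in YN1, so the groups overlapped but each pair differed by 0.29 to 0.35 on the log2 scale (LogFC = 0.32, SE 0.05 with the block, adjusted p = 0.618). Bmp4, a ligand of the BMP family made by kidney stroma, was at 165, 86.1 and 106 TPM against 232, 102 and 135 TPM (LogFC = 0.36, SE 0.06 with the block). Ppp2r3d was at 69.0, 158 and 174 TPM against 53.9, 132 and 133 TPM (LogFC = -0.33, SE 0.05 with the block). Crip2, a LIM domain protein, was at 43.0, 20.2 and 34.1 TPM against 33.1, 15.9 and 26.7 TPM (LogFC = -0.34, SE 0.06 with the block). Over all genes, 2441 (16.8%) were higher in YN1 in all 3 pairs and 2365 (16.3%) lower.

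For the target and its relatives no difference was called. Pfkfb3 (mm9, chromosome 2, 11393057 to 11423728) was at 13.9, 5.23 and 7.74 TPM in DMEM and at 16.5, 3.93 and 8.26 TPM in YN1. It was higher in YN1 in pairs 1 and 3 and lower in pair 2 (LogFC = -0.01, SE 0.53, 95% interval -1.30 to 1.28, and -0.39 to 0.37 with the block). The other PFKFB isoforms gave LogFC of 0.15 for Pfkfb1, 0.20 for Pfkfb2 and -0.32 for Pfkfb4. Of the PFK1 subunits, Pfkl was at -0.11, Pfkm at -0.18 and Pfkp at 0.09, and the fructose 2,6-bisphosphatase Tigar was at 0.05. Over these 8 genes the median LogFC was 0.02, beside -0.0008 over all genes tested, and 1 had a 95% interval within 0.6 without the block and 7 with it, beside 39.5% and 77.9% of all genes tested. At an unadjusted p under 0.05, 0 of the 8 passed in either fit.

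Glycolysis, from glucose uptake to lactate export, was measured by 17 genes, 5 above and 12 below the control, with a median LogFC of -0.05. Of all genes tested, 49.8% were above. None had an unadjusted p under 0.05 without the block, and 2 were lower with it, beside 3.34% of all genes tested. These were Ldhb, a lactate dehydrogenase subunit, at 95.8, 180 and 228 TPM in DMEM and 88.1, 164 and 190 TPM in YN1 (LogFC = -0.17, SE 0.05 with the block), and the aldolase Aldoc, at 1.15 to 10.05 TPM. The other lactate dehydrogenase subunit, Ldha, was at 637, 303 and 561 TPM against 606, 284 and 566 TPM (LogFC = -0.05). Hk2, the inducible hexokinase, had the highest LogFC of the list, at 11.3, 4.20 and 13.2 TPM against 18.9, 5.37 and 13.1 TPM (LogFC = 0.33, SE 0.55, 95% interval -0.99 to 1.65, and -0.09 to 0.75 with the block). Replicate 1 alone differed by more than 0.6, and neither interval bounds Hk2 within 0.6.

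Downstream of pyruvate the lists had medians near 0. The 19 genes of the TCA cycle had a median LogFC of -0.009 and a range of -0.11 to 0.19, and 18 of them had an interval within 0.6 even without the block. Of 16 genes of pyruvate entry and acetyl-CoA supply, 9 were above the control, with a median of 0.006. Acly, which splits citrate into cytosolic acetyl-CoA, was at 120, 120 and 147 TPM in DMEM and 113, 115 and 157 TPM in YN1 (LogFC = -0.02, SE 0.17). Mevalonate and cholesterol synthesis, 21 genes, had a median LogFC of -0.03 and a range of -0.23 to 0.09, and 21 of 21 had an interval within 0.6 with the block. At an unadjusted p under 0.05 with the block, 2 of the 21 were lower, beside 3.34% of all genes tested, Mvd (LogFC = -0.23) and Pmvk (LogFC = -0.14), both steps on the way to isopentenyl diphosphate. Fatty acid synthesis, with 7 measured genes, had a median LogFC of -0.05 and a range of -0.17 to 0.25. The 13 genes of SREBP control, LDL uptake and sterol efflux had a median of -0.08 and a range of -0.33 to 0.14. The median absolute LogFC was 0.135 for fatty acid synthesis and 0.0938 for the SREBP list, 0.0391 for the mevalonate list, 0.0526 for the TCA cycle and 0.0730 for glycolysis, beside 0.0926 over all genes.

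The study names 77 genes for YN1, which it set against NPEM, and reports some of them as not significant. These genes were chosen on these libraries, so their count is not independent evidence of a direction. DMEM minus NPEM shares the NPEM libraries of that choice, and YN1 minus DMEM shares the YN1 libraries. The sizes of both are therefore affected by the choice, and their contrast is no test of the medium. Against the DMEM control their median LogFC was -0.04, with 24 of 77 above 0 and a range of -0.45 to 0.27. Against NPEM, the DMEM control without YN1 had a median of -0.29 over the same genes. At an unadjusted p under 0.05, 0 of the 77 passed without the block and 4 were lower with it, Six2, Sod2, Mvd and Pmvk, beside 3.34% of all genes tested. By topic, the median was -0.03 for 19 cholesterol genes, where DMEM against NPEM gave -0.74. It was -0.06 for 9 genes of citrate and acetyl-CoA, against -0.43 for the medium, and 0.02 for 9 cell cycle genes, against -0.27. The 11 WNT genes were at -0.07 in both comparisons. The 8 genes of progenitors and differentiation were at -0.12, against -0.17 for the medium, the 18 stress genes at -0.02 against 0.05, and the 3 PI3K genes at -0.05 against 0.22.

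Single genes differed in how these sizes compared. Wnt2b, a WNT ligand of the embryonic kidney, was at 0.03, 0.74 and 0.12 TPM in NPEM, at 11.4, 36.3 and 25.5 TPM in the DMEM control and at 15.8, 35.8 and 33.8 TPM in YN1. The difference of DMEM minus NPEM was 4.20 and that of YN1 minus DMEM 0.27 (SE 0.48, and 0.11 with the block). Cited1 went the other way, with -0.45 for YN1 minus DMEM and 0.05 for DMEM minus NPEM, and Six2 was at -0.21 and -0.19. Dhrs3, a retinaldehyde reductase that was chosen for its large response to the medium after its values were seen, stood at 0.42 to 1.52 TPM in NPEM, at 531 to 589 TPM in DMEM and at 519 to 607 TPM in YN1 (YN1 minus DMEM 0.05, SE 0.12). Cdkn1a, the p53-induced cell cycle inhibitor p21, was at 182, 14.3 and 79.4 TPM in DMEM and at 168, 10.3 and 95.5 TPM in YN1 (LogFC = -0.09, SE 1.26). Its levels followed the replicate number in both groups, and the interval without the block is too wide to bound the difference.

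**Figure D4:**
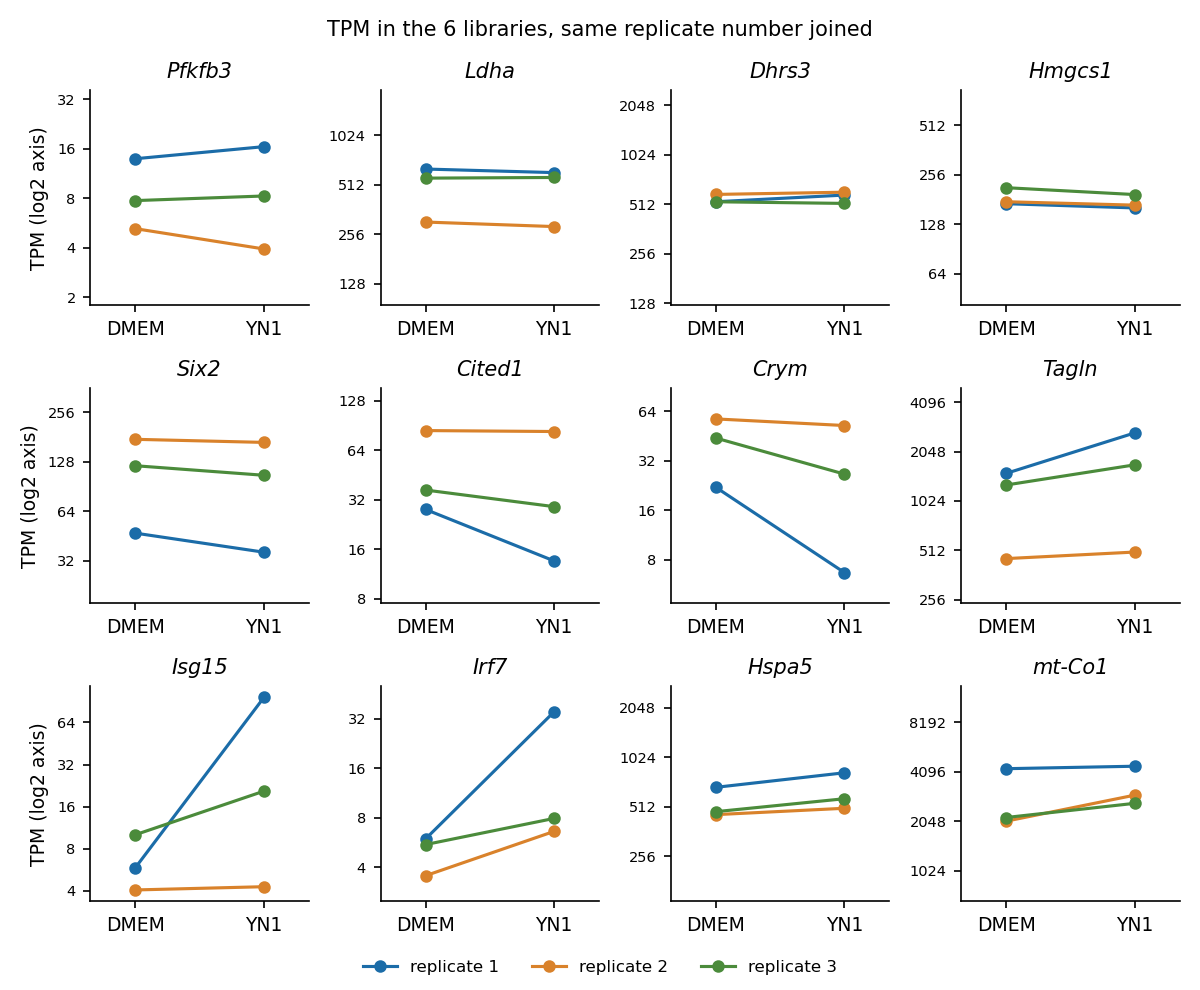
TPM of 12 genes in the 6 libraries on a log2 axis, with DMEM on the left and YN1 on the right of each panel and lines joining libraries of the same replicate number. Ldha, Dhrs3 and Hmgcs1 are nearly level and Pfkfb3 differs in direction between the pairs, while Isg15, Irf7 and Crym differ mainly in replicate 1.

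Progenitor genes were mostly below the control, and chiefly in replicate 1. Of 15 genes of nephron progenitor identity, 14 were below 0 and 1 above, with a median LogFC of -0.18. The median was -0.38 in replicate 1, -0.03 in replicate 2 and -0.06 in replicate 3. It was 0.09 without the YN1 library of replicate 1, 0.01 without the DMEM library of replicate 2, and -0.04 with the block and without replicate 1. Leaving out a single library without the block unbalances the replicate numbers, so such values also carry differences between numbers. None of the 15 genes passed an unadjusted p of 0.05 without the block. With it 3 were lower, Six2, Meox1 and Crym, beside 3.34% of all genes tested. Six2, the transcription factor that keeps the cap mesenchyme undifferentiated, was at 47.1, 175 and 121 TPM in DMEM and at 36.0, 168 and 106 TPM in YN1 (LogFC = -0.21, SE 0.68, and 0.07 with the block). Cited1, which marks the least committed progenitors, was at 27.9, 84.4 and 36.7 TPM against 13.6, 83.2 and 29.0 TPM (LogFC = -0.45, SE 0.70, and 0.19 with the block). The LogFC of Cited1 changed sign to 0.15 without the YN1 library of replicate 1 and to 0.01 without the DMEM library of replicate 2. Crym, a thyroid hormone binding protein of the cap mesenchyme, was at 22.0, 57.4 and 43.9 TPM against 6.66, 52.3 and 26.5 TPM (LogFC = -0.81). In these 3 genes the groups overlapped, and the library of replicate 1 was the lowest of its group in both groups. In bulk samples, fewer cells of a type and less RNA per cell cannot be told apart.

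Genes downstream of FGF and ERK, and immediate early genes, had a like distribution, with 17 of 18 below 0 and a median of -0.17 (-0.35, -0.13 and -0.02 in replicates 1, 2 and 3). With the block 3 were lower at an unadjusted p under 0.05, beside 3.34% of all genes tested. Without the DMEM library of replicate 1 the median was -0.04, in a fit where the replicate numbers no longer balance. Ier2, an immediate early gene, was at 26.5, 31.9 and 44.9 TPM in DMEM and at 17.0, 24.6 and 39.7 TPM in YN1, lower in all 3 pairs (LogFC = -0.38, SE 0.34, and 0.10 with the block). The others were Egr1 (LogFC = -0.35) and the FGF feedback inhibitor Spry2 (LogFC = -0.30). Genes of nephron differentiation showed no common direction, with 7 of 13 above 0 and a median of 0.08. Wnt4, the ligand that turns progenitors into epithelium, was at 3.99, 1.60 and 13.02 TPM against 5.30, 1.36 and 18.0 TPM (LogFC = 0.21, SE 0.91).

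The 13 protein genes of the mitochondrial genome were all above the control, with a median LogFC of 0.31, and with the block 7 were higher at an unadjusted p under 0.05, beside 4.07% of all genes tested. They are cut from long shared transcripts and are not independent measurements. Their summed level was 33821, 16732 and 14907 TPM in DMEM and 34608, 23847 and 18887 TPM in YN1. The medians of the pairs were 0.04, 0.50 and 0.39, so that the difference was in replicates 2 and 3. Without the YN1 library of replicate 1 the median LogFC was 0.06 and without the DMEM library of replicate 3 it was 0.07. Without the DMEM library of replicate 1 it was 0.70. In these fits the replicate numbers no longer balance, so the values also carry differences between numbers. The cytochrome oxidase subunit mt-Co1 was at 4272, 2047 and 2155 TPM against 4422, 2948 and 2629 TPM (LogFC = 0.29, SE 0.35, and 0.10 with the block). Nuclear genes of the respiratory chain did not share it, with 10 of 20 above 0 and a median of -0.004. The part of RNA quality in the mitochondrial levels was not tested.

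Of the 13 genes of the ATF4 and unfolded protein response list, 10 were above 0 with a median of 0.05. The medians of the pairs were 0.15, -0.01 and 0.09 in replicates 1, 2 and 3. With a single library left out and no block, the median was -0.22 without the YN1 library of replicate 1. It was -0.11 without the DMEM library of replicate 2. In these fits the replicate numbers no longer balance, so both values also carry differences between numbers. At an unadjusted p under 0.05 with the block, 3 of the 13 were higher, Hspa5, Hsp90b1 and the stress factor Atf3 (LogFC = 0.63, at 1.12 to 6.05 TPM), beside 4.07% of all genes tested. Hspa5, the chaperone BiP of the endoplasmic reticulum, was at 671, 458 and 477 TPM in DMEM and at 823, 501 and 572 TPM in YN1 (LogFC = 0.23, SE 0.24, and 0.05 with the block). Hsp90b1, a chaperone of the same compartment, was at 797, 374 and 484 TPM against 951, 418 and 565 TPM (LogFC = 0.21). Atf4 itself had a LogFC of 0.03 and Ddit3 of -0.11. Genes of G2 and mitosis had a median of 0.09 with 13 of 16 above 0, and 0 of the 16 at an unadjusted p under 0.05 in either fit. For the remaining lists of metabolism, signaling, stress and cell cycle the median LogFC lay between -0.10 for p53 targets and 0.06 for the heat shock response.

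Replicate 1 stood apart from the other pairs. Among 8936 genes with ordinary names and a mean of at least 10 TPM, the YN1 library of replicate 1 was beyond 1 above its DMEM partner in 23 genes and beyond 1 below it in 66. Replicate 2 had 0 and 1 such genes, and replicate 3 had 2 and 2. In 20 of the 23 the level in that YN1 library was the highest of all 12. Of the 23, 9 were interferon-stimulated. Isg15, a ubiquitin-like protein induced by interferon, was at 5.83, 4.05 and 10.1 TPM in DMEM and at 96.6, 4.27 and 20.6 TPM in YN1. Irf7, an interferon-induced transcription factor, was at 5.95, 3.55 and 5.49 TPM against 35.4, 6.61 and 7.93 TPM.

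A list of 29 interferon-stimulated genes, written after these values were seen and therefore without a test, had 23 members past the filter, 22 of them above the control. Its median was 1.48 in replicate 1, 0.06 in replicate 2 and 0.29 in replicate 3. Its summed level was 363, 328 and 349 TPM in DMEM and 968, 350 and 417 TPM in YN1. Without the YN1 library of replicate 1 the median LogFC of the list went from 0.55 to 0.21, with 19 of 23 above 0. The replicate numbers no longer balance in that fit. The count above 0 depends on which genes were written into the list. Ifitm1, an interferon-induced gene outside it, had the most negative difference in replicate 1 among the 8936 genes, at 34.2, 4.78 and 30.5 TPM in DMEM and at 7.66, 3.21 and 22.7 TPM in YN1. The leukocyte markers Ptprc and Csf1r were under 0.40 TPM in all 6 libraries. Of the 12 genes of the macrophage and blood list, 3 passed the filter, with LogFC of -0.92 to 0.27. Which cells the interferon-stimulated levels came from was not tested.

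Actg2 and Ctgf were also among the 23 genes and are given as examples chosen after their values were seen. Actg2, a smooth muscle actin, was at 280, 30.4 and 195 TPM in DMEM and at 575, 33.4 and 270 TPM in YN1. Ctgf, a matrix-associated growth factor, was at 300, 44.4 and 151 TPM against 651, 45.6 and 228 TPM. The calponin Cnn1 (LogFC = 0.60, SE 1.03, and 0.12 with the block) and the actin-binding Tagln (LogFC = 0.45, SE 0.72, and 0.14 with the block) were not among the 23 and were higher in all 3 pairs. Among the 66 genes on the other side were the collagen VI chains Col6a1 and Col6a2, the PDGF receptor Pdgfra and the retinoic acid synthase Aldh1a2. Col6a1 was at 251, 115 and 64.6 TPM in DMEM and at 102, 103 and 59.3 TPM in YN1. In 17 of the 66 the DMEM library of replicate 1 was the highest of all 12 and in 17 the YN1 library of replicate 1 the lowest. The 11 measured stromal markers had a median LogFC of -0.09, with 3 above 0. Emcn, the one endothelial marker past the filter, was at 235, 143 and 98.1 TPM in DMEM and at 117, 125 and 76.1 TPM in YN1. What set replicate 1 apart was not tested.

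**Figure D5:**
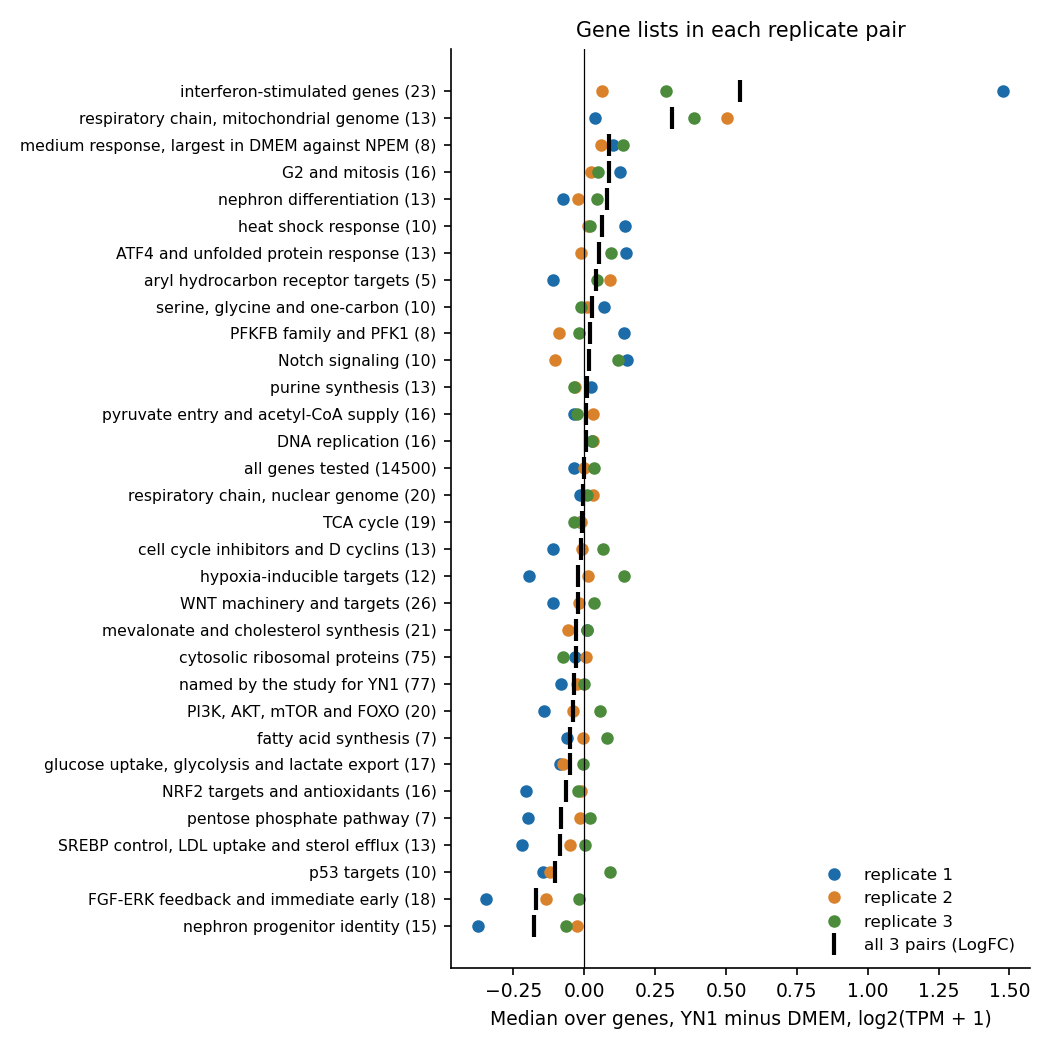
Median difference over the genes of each list, YN1 minus DMEM in log2(TPM + 1) (horizontal axis), for replicate 1 (blue), replicate 2 (orange), replicate 3 (green) and for the LogFC over all 3 (black bar), with the number of tested genes in brackets. Most lists lie within 0.25 of 0 in each pair, the interferon-stimulated genes reach 1.48 in replicate 1, and the mitochondrial genome is above 0 mainly in replicates 2 and 3.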

How the data were processed

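Poly-A RNA of 12 libraries was sequenced as unstranded paired reads, of 75 bp per the labels and 150 bp per the methods. The submitters' processing notes name FastQC, STAR and RSEM with mm9 and mm10. The authors quantified transcripts with Kallisto, summed them to genes and deposited TPM, while versions and the annotation release are not given in the sources used here. The deposited tables also hold the authors' Sleuth effects and q-values against NPEM, and a further pair of tables holds their log2 fold changes and p-values, none of which was used. TPM keep no counts, so depth and the precision it gives are unknown.

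TPM of the 3 YN1 and 3 DMEM columns were joined by gene name, with no further scaling. The 14500 genes that reached 1 TPM in 3 or more of the 6 libraries were tested on log2(TPM + 1) in R 4.3.3, using limma 3.58.1 (lmFit, then eBayes with trend = TRUE), two-sided, Benjamini-Hochberg adjusted over all genes tested. Also used were data.table (version 1.17.8), matplotlib 3.10.9, numpy 2.4.6 and Python 3.11.15. Gene positions follow GENCODE on mm9. The test was tried on simulated data with planted changes larger than most differences reported here. That trial does not bear on small differences.

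Same-numbered libraries deviated together from their group means, with correlations of 0.569 to 0.723 in the 3 YN1 and DMEM pairs and 0.369 to 0.723 in all 18 pairs of the series, against -0.503 to -0.0776 in 36 pairs of different numbers. Deviations cancel within a group, so positive same-number correlations by themselves make the others negative on average. Every same-number correlation was over 0.1, so the numbers were taken to pair the libraries and a block was fitted beside the main test. Other alternatives were quantile normalization, median centring, other filters, a pseudocount of 0.1, all 12 libraries in one fit, eBayes without trend, each library or pair left out, and predicted and small RNA names left out, the last chosen after seeing the data.

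The comparison and the gene lists were chosen with earlier results of these data known. Genes named are those of the PFKFB list, those the study names for YN1, list members as examples, and by smallest unadjusted p the 10 in each direction without overlap of groups, or with the block and the same sign in all pairs, with a mean of at least 1 TPM and without predicted, small RNA and pseudogene names. Others were named after their values were seen, Gm25788, Krt8, Dhrs3, Cnn1, Ifitm1 and the genes of replicate 1 among them. Of the list genes Pgam1, Scd1, Scd2, Fads1, Fads2, Pmaip1, Fas, Notch3, Spry4 and Acta2 were not analysed here. Replicates are described as independent NPC preparations in the study but not in the labels, and p-values measure the spread between these libraries.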

Additional observations from a re-analysis of the deposited data

How the results depend on the processing

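By adjusted p, no gene passed in any alternative other than eBayes without trend, which called 1, Gm25788. With the replicate block there were 1074 genes at an unadjusted p under 0.05, 185 at the study's thresholds and 11289 with an interval within 0.6, against 75, 66 and 5722. All 12 libraries in one fit with the block gave 267, 126 and 9447, and eBayes without trend with the block 953, 144 and 11633. Without a filter on low values 406 were at an unadjusted p under 0.05 and 18933 of 31988 had an interval within 0.6, and with a mean of at least 5 TPM 41 were at the study's thresholds. Without predicted and small RNA names 8 genes were at an unadjusted p under 0.05 and 1 at the study's thresholds, and with the block as well 1204 were at the unadjusted p and 10694 of 11790 had an interval within 0.6. With the block and without replicate 1, 2 or 3 in both groups, 911, 956 and 727 genes were at an unadjusted p under 0.05, 232, 410 and 288 at the study's thresholds, and 10729, 9265 and 8884 had an interval within 0.6. With each library left out in turn and no block, these counts ranged from 83 to 163, from 76 to 148 and from 3192 to 4788. Such fits have unbalanced replicate numbers, so their values also carry differences between numbers. The median absolute LogFC ranged from 0.107 to 0.164 with a library left out and from 0.0883 to 0.114 with a pair left out and the block. The distance between same-number libraries moved by less than its spread over the pairs. Of 123 named genes, 0 passed the adjusted p in any of 21 alternatives, and the sign of the LogFC changed in 191 of 2578 combinations of gene and alternative, 188 of them with a library or pair left out, in genes with a LogFC of up to 0.45 in size, that of Cited1. Medians of gene lists moved by more than their SD over the pairs in 113 combinations of list and alternative with a library or pair left out and in 4 others. Quantile normalization and median centring moved the median LogFC of all genes by less than its SD over the pairs. That bound can exceed list medians near 0, so it does not fix their signs. Depth is not known from TPM, and the SE of 0.241 without the block limits what 3 libraries per group can show.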
